A study of Homo sapiens with 9 samples.

Results

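BMP signalling was followed through 9 genes in the human Ewing sarcoma line TC-32: the ligands BMP4 and BMP7, the secreted antagonists GREM1 and CHRDL1, the type I receptor BMPR1B, the inhibitory SMAD6 and the response genes ATOH8, ID1 and ID3. They are 9 of the 58381 genes in the count table, found by gene symbol, and 8 of them passed the filter on low counts among 17235 genes. BMP4 did not pass. The genes were chosen by their values in these same libraries, so their differences between groups are given as descriptions with intervals, and counts of calls among them only beside the share over all genes.

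TC-32 carries the EWSR1::FLI1 fusion, and the study asked which genes respond to the transcription factor ETS1 in cells that still make the fusion. Gene expression was measured by stranded mRNA sequencing in 3 groups of 3 libraries: cells with the lentiviral vector pLOC expressing red fluorescent protein (RFP), and cells with pLOC carrying a synthetic human ETS1 cDNA at a lower (ETS1-Low) or higher (ETS1-High) level. All groups keep the fusion, and the protocol describes puromycin selection and single-cell sorting of transduced cells. The ETS1 groups are single-cell clones, the number of clones per group is not given, and the sources used here do not say whether RFP is a clone, so that clone and ETS1 level cannot be told apart. Nothing in the labels ties the libraries of a group to separate cultures, so p-values measure the spread between these libraries, which may be technical.

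BMPs are secreted members of the TGF-beta superfamily. They bind pairs of type I and type II serine/threonine kinase receptors, which phosphorylate SMAD1, SMAD5 and SMAD9. These join SMAD4, enter the nucleus and activate targets such as the ID genes, whose products hold basic helix-loop-helix factors away from DNA, and SMAD6 and SMAD7, which feed back to damp the signal. Outside the cell, antagonists such as GREM1, CHRDL1 and NOG (noggin) bind the ligands and keep them from the receptors.

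Promoter sequence is shown for the 2 antagonists that differed most between the ETS1 groups and for ID3 and ATOH8, the chosen response genes with the largest folds against RFP. Each is the 250 bases before a RefSeq transcript start (GRCh38.p14), read 5′ to 3′ on the strand of the gene, with capitals for the motifs GGCGCC (a GC-rich SMAD element) and CAGAC (a SMAD box) on either strand, so that GTCTG is CAGAC on the other strand. The GREM1 window is chr15:32717754-32718003 on the plus strand, and it holds GGCGCC at 2 places and CAGAC at 2.
GREM1: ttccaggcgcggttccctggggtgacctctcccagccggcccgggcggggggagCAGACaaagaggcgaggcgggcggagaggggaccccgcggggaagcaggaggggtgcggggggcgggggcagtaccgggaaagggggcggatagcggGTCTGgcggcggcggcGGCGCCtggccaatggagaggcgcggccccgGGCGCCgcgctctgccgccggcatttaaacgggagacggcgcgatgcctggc
The CHRDL1 window, chrX:110795818-110796067 on the minus strand, holds neither motif.
CHRDL1: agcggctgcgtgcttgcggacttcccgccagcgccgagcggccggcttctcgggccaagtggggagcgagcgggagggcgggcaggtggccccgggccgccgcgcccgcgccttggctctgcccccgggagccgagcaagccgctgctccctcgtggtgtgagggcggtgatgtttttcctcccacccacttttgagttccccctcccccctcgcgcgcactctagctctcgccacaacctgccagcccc
The ID3 window, chr1:23559502-23559751 on the minus strand, holds CAGAC at 1 place.
ID3: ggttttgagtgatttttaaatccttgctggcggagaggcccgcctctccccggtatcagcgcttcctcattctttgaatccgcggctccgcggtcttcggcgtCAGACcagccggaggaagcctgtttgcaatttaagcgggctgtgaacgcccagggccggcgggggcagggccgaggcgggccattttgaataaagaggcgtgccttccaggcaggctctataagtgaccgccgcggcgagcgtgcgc
The ATOH8 window, chr2:85753741-85753990 on the plus strand, holds neither. Its RefSeq start lies 2647 bases downstream of the GENCODE start of the gene.
ATOH8: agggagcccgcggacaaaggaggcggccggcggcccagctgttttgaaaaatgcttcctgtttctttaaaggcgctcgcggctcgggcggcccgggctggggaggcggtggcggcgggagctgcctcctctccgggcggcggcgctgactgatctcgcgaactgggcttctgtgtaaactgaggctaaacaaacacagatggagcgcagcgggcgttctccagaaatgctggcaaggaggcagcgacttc
Across 35116 RefSeq windows of this length GGCGCC occurred in 16.4% and CAGAC in 38%, and the ETS motif CCGGAA in 14.5%. Only this longer form was searched for. The shorter ETS core GGAA was not counted and occurs in windows shown, among them those of GREM1 and ID3. CCGGAA was in none of the 4 windows shown, and among the 8 members with a window only BMP4 had it. The motifs do not overlap each other in these windows, and a match describes letters only. None of these counts measures binding of a factor.

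Library totals ran from 39484704 to 46654734 expected counts. ETS1, the introduced gene, stood at 2.00 ± 0.17 CPM (counts scaled to library size, mean ± SD, n = 3) in RFP, 10.6 ± 0.30 in ETS1-Low and 19.1 ± 0.81 in ETS1-High, in the order of the labels. All 8 markers of Ewing sarcoma examined were detected, with group means of at least 19.4 CPM. Of 8 markers of other cell types, 6, 6 and 5 stayed under 1 CPM in the RFP, the ETS1-Low and the ETS1-High libraries. Their summed level was 169.7 to 185.8, 344.7 to 347.6 and 447.7 to 477.5 CPM in those groups, nearly all from COL3A1. Without COL3A1 the sums were 2.11 to 2.37, 4.54 to 5 and 7.79 to 8.45 CPM. Their part in the BMP results was not tested. In bulk RNA, fewer cells of a type and less RNA per cell cannot be told apart.

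**Figure D1:**
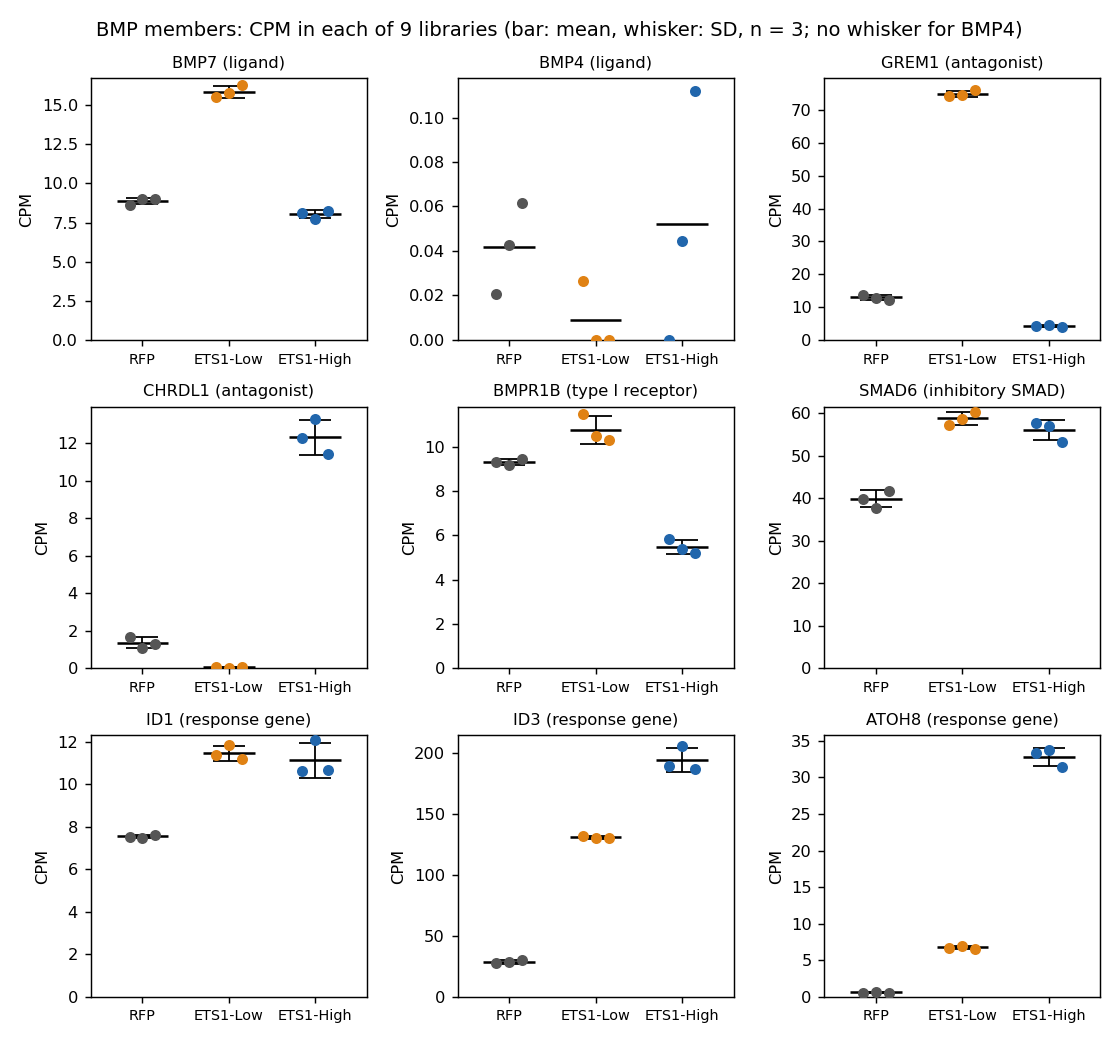
Expression of the 9 BMP genes in CPM (y axis, linear, each panel on its own scale) in 3 RFP, 3 ETS1-Low and 3 ETS1-High libraries (x axis). Each point is 1 library, the bar is the group mean and the whisker the SD, except for BMP4, which has 0 to 5 counts per library. ATOH8 and ID3 are lowest in RFP and highest in ETS1-High, GREM1 and BMP7 are highest in ETS1-Low, and CHRDL1 is near 0 in ETS1-Low.

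The 9 genes did not move as a block. ATOH8 and ID3 were higher at each step from RFP to ETS1-Low to ETS1-High, ID1 and SMAD6 were higher by a similar amount in both ETS1 groups, GREM1 and BMP7 were highest in ETS1-Low, BMPR1B was lowest in ETS1-High, and CHRDL1 was nearly absent in ETS1-Low and highest in ETS1-High. In ETS1-High against RFP, 5 of the 8 fitted genes were called higher and 2 lower, where 37% of all tested genes were called higher and 37.2% lower, 74.2% in all. In ETS1-Low against RFP, 7 were called higher and 1 lower, where the shares over all genes were 37.9% and 36.2%, 74.1% in all. In ETS1-High against ETS1-Low, 3 were called higher, 3 lower and 2 in neither direction, against 29.9%, 29.3% and 59.2% in all. Since the genes were chosen on these comparisons, the counts are descriptive and nothing is read from them. A call is an adjusted p under 0.05 in the edgeR quasi-likelihood test. The libraries of both groups did not overlap for 8, 8 and 6 of the 8 genes in the 3 comparisons, while this held for 75.5%, 76% and 63.2% of all genes. The median log2 fold changes of the 8 genes were 0.53, 0.72 and -0.06, and those of all genes were -0.0094, 0.0101 and -4.67e-05. The comparisons share libraries by pairs, so their values are not independent.

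**Figure D2:**
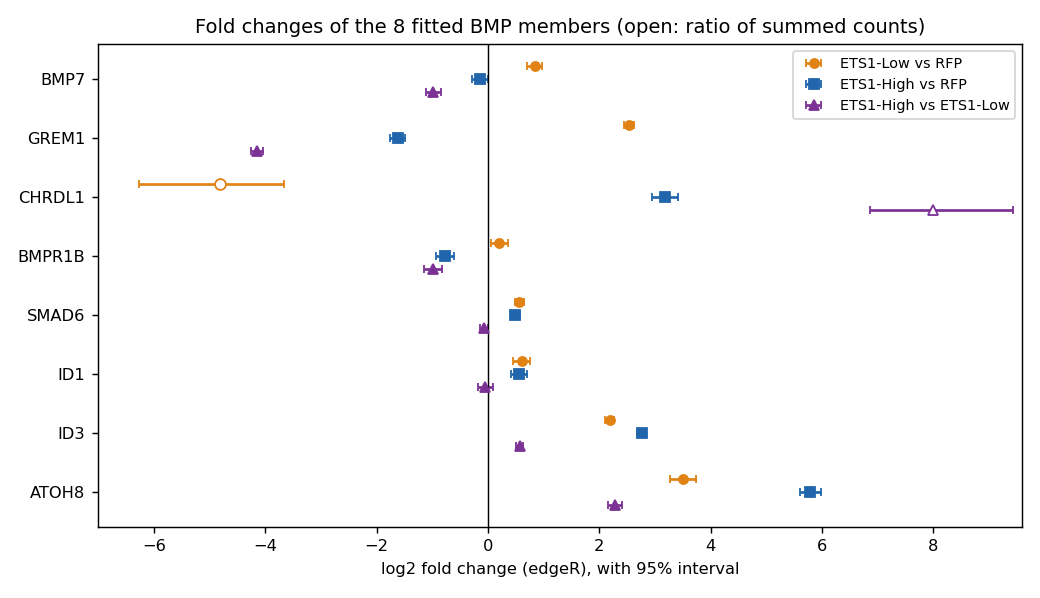
The log2 fold change (x axis) of the 8 fitted BMP genes (y axis) in ETS1-Low against RFP (circles), ETS1-High against RFP (squares) and ETS1-High against ETS1-Low (triangles), with 95% intervals. Filled symbols are edgeR estimates. The open CHRDL1 symbols are log2 ratios of summed counts with exact counting intervals, since ETS1-Low held 1 to 3 counts per library. GREM1 lies right of 0 in ETS1-Low and left of 0 in ETS1-High, and CHRDL1 the other way round.

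Of the ligands, BMP7 was the only chosen one with more than a few counts. BMP7 (chromosome 20, 57168753 to 57266641, minus strand) encodes a ligand with roles in kidney, eye and bone. Its level was 8.62, 9.0 and 8.99 CPM in RFP replicates 1 to 3, 15.5, 15.8 and 16.3 in ETS1-Low, and 8.10, 7.74 and 8.26 in ETS1-High. All 3 ETS1-Low libraries lay far above the others, and the ETS1-High libraries lay just under the RFP ones without overlap. ETS1-Low stood above RFP by 0.84 ± 0.07 (log2 fold change, SE), and ETS1-High differed from ETS1-Low by -0.98 ± 0.07. Between ETS1-High and RFP it was -0.14, with a 95% interval of -0.29 to 0.00081, which includes 0. Per length, BMP7 stood at 3.47 ± 0.30 FPKM in RFP, 6.16 ± 1.09 in ETS1-Low and 3.06 ± 0.35 in ETS1-High.

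BMP4 (chromosome 14, 53949736 to 53958761, minus strand), a ligand of early mesoderm and limb, had 1, 2 and 3 counts in RFP, 1, 0 and 0 in ETS1-Low, and 0, 2 and 5 in ETS1-High. The counts overlap between all groups, and 8 of the 9 libraries lie at or under the floor of 3 counts, which is 0.0615 to 0.0793 CPM in these libraries. A difference was not detectable at this depth, and no fold change is given. An annotated antisense transcript overlaps a BMP4 exon, and the strand setting of the counting is not given in the sources used here.

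The antagonist GREM1 (gremlin 1, chromosome 15, 32718004 to 32745106, plus strand; its promoter is printed above) binds BMP2, BMP4 and BMP7. It measured 13.8, 12.9 and 12.3 CPM in RFP, 74.5, 74.5 and 76.1 in ETS1-Low, and 4.34, 4.41 and 3.94 in ETS1-High. The 3 groups were fully apart, with ETS1-Low at the top and ETS1-High at the bottom. Against RFP, GREM1 was 5.78-fold higher in ETS1-Low (log2 fold change 2.53 ± 0.05 SE) and 3.07-fold lower in ETS1-High (-1.62 ± 0.07). Between the ETS1 groups the log2 difference was -4.15 ± 0.06, a 17.7-fold lower level in ETS1-High. In FPKM the group means were 3.36 ± 0.26, 17.6 ± 0.38 and 0.97 ± 0.12. The antisense gene GREM1-AS1 overlaps 2 GREM1 exons and held 0 to 7 counts per library, with at most 1 in RFP and at most 2 in ETS1-High.

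CHRDL1 (chordin-like 1, chromosome X, 110673856 to 110795819, minus strand) is a secreted protein that binds BMP4. Its level was 1.66, 1.09 and 1.31 CPM in RFP, and 12.3, 13.3 and 11.4 in ETS1-High. The ETS1-Low libraries held only 3, 1 and 2 counts, or 0.0794, 0.0222 and 0.0488 CPM. The order of GREM1 was thus turned round: CHRDL1 was lowest in ETS1-Low and highest in ETS1-High, again without overlap. ETS1-High stood above RFP by 3.18 ± 0.12 (log2, SE), a 9.07-fold higher level. From the summed counts scaled to library size, the RFP level was 28 times that of ETS1-Low (195 against 6 counts, exact 95% counting interval 12.6 to 77.1). The ETS1-High level was 254 times that of ETS1-Low (1589 against 6 counts, interval 116 to 693.0). These intervals cover counting error only. Expressed genes within 10 Mb of CHRDL1 had medians of 0.08, -0.49 and 0.59 on the log2 scale in ETS1-High against RFP, ETS1-Low against RFP and ETS1-High against ETS1-Low, in the direction of CHRDL1 each time but smaller.

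BMPR1B (chromosome 4, 94757955 to 95158448, plus strand), a type I receptor with a known part in cartilage, measured 9.29, 9.20 and 9.45 CPM in RFP, 11.5, 10.5 and 10.3 in ETS1-Low, and 5.81, 5.37 and 5.20 in ETS1-High. All ETS1-High libraries lay below all others. Set against RFP, ETS1-High differed by -0.77 ± 0.08 (log2, SE), and set against ETS1-Low by -0.98 ± 0.08. The difference of ETS1-Low from RFP was small, 0.21 ± 0.07. Per length these groups differed by less than the SD, with 2.15 ± 0.32 FPKM in RFP and 2.11 ± 0.15 in ETS1-Low against 1.11 ± 0.22 in ETS1-High, and the sign turned on the log2(FPKM + 1) scale (-0.0179). The genes within 10 Mb gave a median of -0.32 for ETS1-High and -0.42 for ETS1-Low, each against RFP. Relative to these, BMPR1B stood at -0.45 and 0.63.

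SMAD6 (chromosome 15, 66702236 to 66782849, plus strand), the inhibitory SMAD that prefers BMP receptors, was at 40.0, 37.8 and 41.8 CPM in RFP, 57.3, 58.7 and 60.4 in ETS1-Low, and 57.8, 57.0 and 53.4 in ETS1-High. Both ETS1 groups lay above RFP without overlap and overlapped each other. The log2 fold changes were 0.56 ± 0.04 (SE) in ETS1-Low and 0.49 ± 0.04 in ETS1-High against RFP. Between the ETS1 groups the difference was -0.07, with an interval of -0.15 to 0.0072. The median of expressed genes within 10 Mb was 0.34 for the ETS1-Low comparison with RFP, which leaves 0.22 for SMAD6, and -0.06 for the ETS1-High comparison, which leaves 0.55.

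Among the response genes, ID1 (chromosome 20, 31605283 to 31606515, plus strand) shared this plateau. Its level was 7.54, 7.49 and 7.62 CPM in RFP, 11.4, 11.9 and 11.2 in ETS1-Low, and 10.6, 12.1 and 10.7 in ETS1-High. The ETS1 groups overlapped, and both lay above RFP. Log2 fold changes against RFP were 0.60 ± 0.07 (SE) for ETS1-Low and 0.56 ± 0.07 for ETS1-High, and the difference between the ETS1 groups was -0.04 with an interval of -0.19 to 0.10.

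ID3 (chromosome 1, 23557926 to 23559501, minus strand) was the most abundant of the 9 genes per length. It measured 27.4, 28.1 and 30.3 CPM in RFP, 131.7, 129.9 and 130.3 in ETS1-Low, and 189.4, 205.3 and 186.9 in ETS1-High. The groups formed 3 separate levels. ID3 was 4.56-fold higher in ETS1-Low than in RFP (log2 fold change 2.19 ± 0.04 SE), 6.77-fold higher in ETS1-High (2.76 ± 0.04) and exceeded ETS1-Low 1.48-fold in ETS1-High (0.57 ± 0.03). In FPKM it went from 32.8 ± 1.57 in RFP to 132.6 ± 1.42 in ETS1-Low and 199.3 ± 7.79 in ETS1-High.

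ATOH8 (chromosome 2, 85751344 to 85791383, plus strand), a basic helix-loop-helix factor known as a BMP target in endothelium and liver, had the largest fold of the 8 fitted genes in ETS1-High against RFP. Its level was 0.561, 0.640 and 0.574 CPM in RFP, 6.69, 6.96 and 6.59 in ETS1-Low, and 33.4, 33.7 and 31.4 in ETS1-High. Again 3 levels stood apart. Against RFP it was higher by 3.51 ± 0.12 (log2, SE) in ETS1-Low and by 5.79 ± 0.09 in ETS1-High, an 11.4-fold and a 55.3-fold higher level. ETS1-High exceeded ETS1-Low 4.86-fold (2.28 ± 0.06). Its neighbours within 10 Mb had medians of 0.39 and 0.46 against RFP, far under the values of ATOH8. Per length ATOH8 passed from 0.30 ± 0.02 FPKM to 3.39 ± 0.16 and 15.9 ± 0.28.

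The tested gene whose pattern over the 9 libraries lay nearest to each member, by the root mean square difference of centred log2 CPM among 12393 genes, was found for each. For GREM1 it was CD70, a TNF superfamily ligand (difference 0.358), with 1.72 ± 0.15 CPM in RFP, 6.32 ± 0.86 in ETS1-Low and 0.521 ± 0.125 in ETS1-High. For CHRDL1 it was ZNF804A (0.305), at 0.877 ± 0.097, 0.0088 ± 0.015 and 5.97 ± 0.65 CPM. In ETS1-Low, ZNF804A lay under the floor of 3 counts per library and CHRDL1 at or under it. The likeness of both genes in that group is thus between floor values. For ATOH8 it was the complement component C3 (0.182), at 0.16 ± 0.009, 1.66 ± 0.10 and 9.22 ± 0.95 CPM. For ID3 it was DTX3L, a ubiquitin ligase (0.0803), at 6.51 ± 0.35, 28.7 ± 1.00 and 39.7 ± 0.52 CPM. The nearest genes of the members with smaller differences were PCLAF for BMP7 (0.04), PANK1 for BMPR1B (0.0715), NECTIN2 for ID1 (0.0363) and FOXRED2 for SMAD6 (0.0321).

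The rest of the pathway was read from a list of 63 further genes, of which 47 passed the filter on low counts. In ETS1-High against RFP, 27 rose, 14 fell and 6 were not called, so 87.2% were called where 74.2% of all genes were. Against RFP in ETS1-Low, 20 rose and 23 fell, 91.5% against 74.1% of all genes. Between the ETS1 groups 26 were higher and 14 lower in ETS1-High, 85.1% against 59.2%. The median log2 fold changes were 0.32, -0.17 and 0.20. The list was drawn up with earlier results of these data known. Adjusted p-values of these genes are from edgeR (quasi-likelihood), corrected over all 17235 genes.

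**Figure D3:**
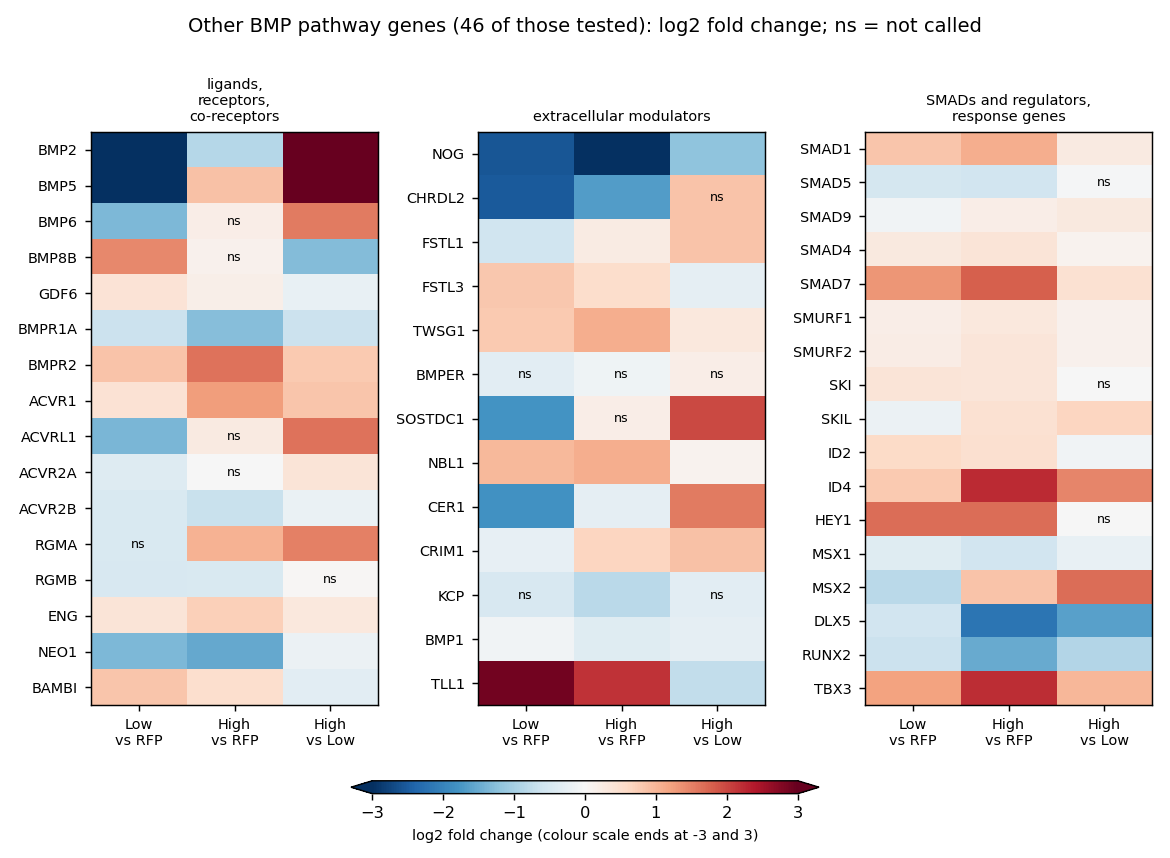
The log2 fold change (colour, red higher, blue lower, scale ending at -3 and 3) of 46 of the 47 other BMP pathway genes tested (rows) in ETS1-Low against RFP, ETS1-High against RFP and ETS1-High against ETS1-Low (columns), with ns where no difference was called. In both comparisons that involve ETS1-Low, the BMP5 colour rests on a group with 0 counts in each library. Receptors, SMADs and response genes each hold both red and blue rows. In ETS1-High against RFP the rows of SMADs and SMAD regulators are red except for SMAD5.

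Among the other ligands 5 of 12 were tested, and GDF6, a relative of BMP7 that acts in joints and eye, was by far the most abundant per length, with 121.3 FPKM in RFP, 146.6 in ETS1-Low and 128.1 in ETS1-High. It rose by 0.41 (log2) in ETS1-Low (adjusted p = 4.15e-18) and by 0.18 in ETS1-High (1.59e-07), and 7 of its 9 count values were not whole numbers. BMP2, a ligand of bone formation, was lowest in ETS1-Low, where BMP7 was highest. It measured 7.58 ± 0.49 CPM in RFP, 0.242 ± 0.083 in ETS1-Low and 4.18 ± 0.64 in ETS1-High, and its log2 fold change was -4.95 in ETS1-Low (adjusted p = 7.74e-30) and -0.86 in ETS1-High (3.92e-10). BMP6, known for iron control in the liver, also fell in ETS1-Low, from 4.03 ± 0.38 to 1.57 ± 0.23 CPM (adjusted p = 7.29e-13), and stood at 4.59 ± 0.52 in ETS1-High with no difference called from RFP (0.128). BMP8B rose in ETS1-Low from 1.43 ± 0.20 to 3.86 ± 0.19 CPM (adjusted p = 1.17e-12), though 8 of its 9 values were not whole numbers.

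The receptors changed in make-up. BMPR1A, the type I receptor with the highest level per length, fell from 110.6 ± 4.70 CPM in RFP to 70.5 ± 3.75 in ETS1-Low and 45.3 ± 0.42 in ETS1-High, with a log2 fold change of -1.29 ± 0.04 (SE) in ETS1-High against RFP (adjusted p = 2.52e-33). All 9 of its count values were not whole numbers. ACVR1 rose from 8.89 ± 0.08 to 12.0 ± 0.32 and 21.4 ± 0.98 CPM (1.26 ± 0.06 in ETS1-High against RFP, adjusted p = 3.02e-24). ACVRL1, best known from endothelium, stayed under 1 CPM in all groups. Of the type II receptors, BMPR2 rose from 52.3 ± 1.31 to 93.9 ± 2.94 and 162.1 ± 7.63 CPM (1.63 ± 0.03 in ETS1-High against RFP, adjusted p = 2.09e-39). ACVR2B fell by 0.66 on the log2 scale in ETS1-High (adjusted p = 7.25e-21). ACVR2A fell by 0.39 in ETS1-Low (4.17e-05) and was not called in ETS1-High against RFP (0.984), where the limma fits of FPKM called it lower (-0.24 with a pseudocount of 1).

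Within the summed FPKM of the 4 type I receptors, the share of BMPR1B was 6.58 ± 0.82% in RFP, 9.12 ± 0.80% in ETS1-Low and 5.43 ± 1.00% in ETS1-High. BMPR1A held 81.3 ± 0.28%, 71.4 ± 1.89% and 53.6 ± 0.88% of that sum, and ACVR1 10.9 ± 0.34%, 18.7 ± 0.92% and 39.5 ± 1.35%. The sum itself was 32.7 ± 1.07, 23.1 ± 0.45 and 20.4 ± 0.53 FPKM. BMPR2 made up 44.1 ± 2.33%, 68.1 ± 1.81% and 77.1 ± 0.95% of the 3 type II receptors. BMPR1B was thus a minor type I receptor in every group, at under 10% of the summed level.

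**Figure D4:**
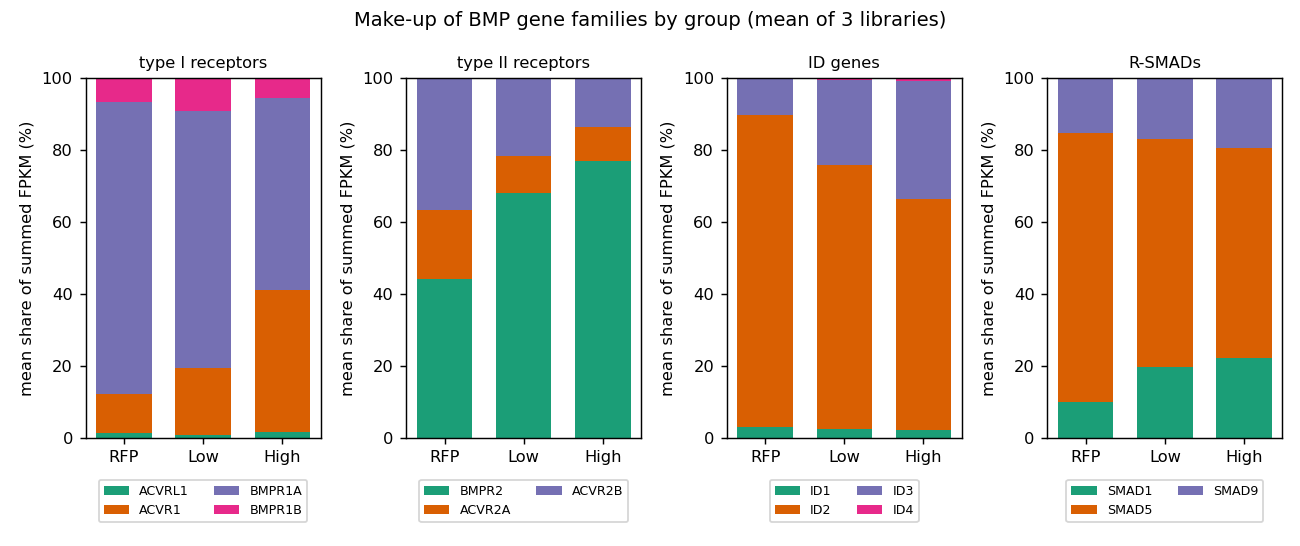
Mean share (y axis, percent of the summed FPKM of the family, from 0 to 100) of each gene among type I receptors, type II receptors, ID genes and receptor-activated SMADs in RFP, ETS1-Low and ETS1-High (x axis, 3 libraries each). ACVR1 takes up a larger share of the type I receptors and ID3 of the ID genes at each step, while BMPR1B stays between 5.43% and 9.12%.

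The co-receptor NEO1 (neogenin, which binds the repulsive guidance molecules) fell from 94.0 ± 2.89 CPM in RFP to 36.7 ± 0.64 in ETS1-Low and 32.7 ± 0.94 in ETS1-High (adjusted p = 1.33e-37 for ETS1-High against RFP). RGMA, a ligand-binding co-receptor, exceeded its ETS1-Low level by 1.51 (log2) in ETS1-High (adjusted p = 1.15e-08). The pseudoreceptor BAMBI, which damps signalling, rose from 20.1 ± 0.70 to 35.7 ± 1.39 CPM in ETS1-Low (adjusted p = 8.12e-22) and stood at 28.5 ± 1.30 in ETS1-High.

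The extracellular modulators besides GREM1 and CHRDL1 went both ways. In ETS1-High against RFP, 7 of the 14 tested rose and 5 fell, and in ETS1-Low 4 rose and 7 fell. The shares called were 85.7% and 78.6%, near the 74.2% and 74.1% of all genes, which were also divided about evenly between higher and lower. NOG, a high-affinity antagonist, fell in both ETS1 groups, from 11.25 ± 0.70 CPM in RFP to 1.89 ± 0.15 and 0.815 ± 0.072, with log2 fold changes of -2.57 in ETS1-Low (adjusted p = 1.4e-27) and -3.78 in ETS1-High (3.46e-32). TLL1, a protease that cleaves chordin, rose from 0.445 ± 0.067 CPM to 3.34 ± 0.26 in ETS1-Low (adjusted p = 1.85e-19) and 2.01 ± 0.27 in ETS1-High (5.73e-14).

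Of the 9 SMADs and SMAD regulators besides SMAD6, 8 rose and 1 fell in ETS1-High against RFP, and 6 rose and 3 fell in ETS1-Low. Over all tested genes, 37% were called higher and 37.2% lower in ETS1-High, and 37.9% and 36.2% in ETS1-Low, each against RFP. SMAD7, the other inhibitory SMAD, rose from 2.91 ± 0.35 CPM to 7.29 ± 0.51 and 10.0 ± 0.19, by 1.78 ± 0.09 (log2, SE) in ETS1-High (adjusted p = 3.21e-23). SMAD6 was higher by 0.49 in the same comparison, and per length it was the more abundant of both, at 13.7 ± 0.96 against 3.80 FPKM in ETS1-High. SMAD1 rose by 1.10 in ETS1-High (adjusted p = 6.83e-18) and SMAD5 fell by 0.57 (8.1e-22). Antisense genes overlap 8 annotated exons of SMAD1 and 4 of SMAD5, and the strand setting of the counting is not given. SMAD5 remained the main receptor-activated SMAD per length, at 74.7 ± 0.87%, 63.6 ± 0.83% and 58.6 ± 0.85% of the summed FPKM of SMAD1, SMAD5 and SMAD9. SMAD9 rose by 0.20 in ETS1-High (adjusted p = 6.3e-05), a call that the FPKM fits did not make (0.0756 with a pseudocount of 1), while its log2 difference of -0.10 in ETS1-Low (0.0489) lost the call in the alternatives listed further on. SMAD4 rose by 0.39 in ETS1-High (adjusted p = 1.38e-15), with all 9 count values not whole. SKIL, a repressor of SMAD complexes, exceeded its ETS1-Low level by 0.63 (log2) in ETS1-High (adjusted p = 2.66e-18).

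Of the 8 other response genes tested, 5 rose and 3 fell in ETS1-High against RFP, and 4 rose and 4 fell in ETS1-Low. Among all genes 74.2% and 74.1% were called in these comparisons, about evenly higher and lower. ID2 rose from 279.7 ± 5.41 CPM to 419.4 ± 9.22 in ETS1-Low (log2 fold change 0.58, adjusted p = 1.31e-23) and 387.4 ± 9.69 in ETS1-High (0.47, 7.42e-20), beside 0.60 and 0.56 for ID1. ID4 rose at each step, from 1.96 ± 0.19 to 3.4 ± 0.23 and 9.26 ± 0.73 CPM (2.24 in ETS1-High against RFP, adjusted p = 6.74e-25). The summed FPKM of the 4 ID genes was 335 ± 6.67 in RFP, 559 ± 6.42 in ETS1-Low and 604 ± 20 in ETS1-High. Within it the share of ID3 was 9.82 ± 0.67%, 23.7 ± 0.06% and 33.0 ± 0.92%, and that of ID1 2.84 ± 0.07%, 2.35 ± 0.06% and 2.14 ± 0.08%. ID2 remained the most abundant ID gene in each group, at 87.1 ± 0.77%, 73.6 ± 0.10% and 64.2 ± 0.95%.

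The developmental transcription factors on the list did not follow the ID genes as a group. TBX3 rose by 2.21 ± 0.03 (log2, SE) in ETS1-High against RFP (adjusted p = 4.99e-46), from 40.3 ± 1.53 to 186.5 ± 5.40 CPM, with 93.5 ± 1.34 in ETS1-Low. DLX5, a homeobox factor of bone formation, fell by 2.20 ± 0.04 (2.57e-42), from 87.3 ± 2.03 to 18.9 ± 1.19 CPM, with 58.5 ± 1.92 in ETS1-Low.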

How the data were processed

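Expected counts from RSEM, and FPKM values scaled by gene length and library size, were deposited by the authors, per the file headers. Per the submitters' processing notes, which give no roles or order, cutadapt 4.4, STAR 2.7.3, featureCounts, Subread 2.0.3, limma 3.38.3 and GRCh38/hg38 were named. The RSEM version, annotation and strand setting are not given in the sources used here. Genes on the other strand overlap exons of several named genes, among them SMAD1, SMAD5, TBX3, ID2 and ACVR2A. Their part in the counts was not tested. Expected counts are estimates, and 9% to 10.3% of each library's values carried decimals. They were rounded and tested with the edgeR 4.0.16 quasi-likelihood test in R 4.3.3 (robust, TMM, filterByExpr by group), with all 9 libraries in 1 fit, group as the only factor, and Benjamini-Hochberg adjustment over 17235 genes. The standard error of a log2 fold change is its size divided by the root of F, and log2 values are of counts scaled by library. The script was tested on simulated data. FPKM values were used for levels between genes and as an alternative, with limma 3.58.1 on log2(FPKM + 1) or log2(FPKM + 0.1).

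Replicate libraries differed by more than sampling noise (chi-square per gene 2.66 to 5.19 where a gene had 50 or more counts in a pair). This does not show whether they come from separate cultures. Each library entered the fit separately, and the spread between them may be technical. A limit for 0 counts is 3 counts per library, and limits and counting intervals cover counting error only, as reads carried no molecular identifiers. Where a group held 1 to 3 counts in a library, summed counts were compared with an exact Clopper-Pearson interval (95%). Levels are CPM on TMM-normalised library sizes. No column lacked a library (0).

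The members and the list of 63 pathway genes were chosen with earlier results of these data known. Beside the members, the genes named were all receptors of the list, SMAD1, SMAD4, SMAD5, SMAD7, SMAD9, ID2, ID4, up to 3 called genes of each role with the largest log2 fold change and at least 1 CPM in the highest group, and the nearest gene of each member. GDF6, BMP5, MSX2, FSTL1, CRIM1, COL3A1 and GREM1-AS1 fall outside this rule and were named after their values were seen. A result that the rule selected is left out of the text. RefSeq promoter windows (GRCh38.p14) matched 8 of 9 members by symbol. Positions come from GENCODE v44 on GRCh38, found for 99.2% of tested genes. Medians of neighbours are over genes within 10 Mb with a mean log2 CPM of at least 1. Alternatives were DESeq2 1.42.0 size factors and Wald test, upper-quartile factors, no filter, at least 10 counts in every library, a replicate block, fits of 2 groups, leaving out each library, and the FPKM fits.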

Additional observations from a re-analysis of the deposited data

Results flagged for a closer look

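In 6 of the 47 other pathway genes tested, ETS1-Low and ETS1-High were called in opposite directions from RFP. In each, the difference between the ETS1 groups was itself called by the edgeR quasi-likelihood test. Of all genes, 74.1% were called in ETS1-Low and 74.2% in ETS1-High against RFP, and 59.2% between the ETS1 groups. The share of all genes that meet the same rule was not counted, so nothing is read from the number of such genes. MSX2, a homeobox target of BMP signalling in skull and limb, measured 4.46 ± 0.04 CPM in RFP, 2.53 ± 0.41 in ETS1-Low and 8.10 ± 0.63 in ETS1-High. Against RFP its log2 fold change was 0.86 for ETS1-High and -0.82 for ETS1-Low, and it was 1.68 between those ETS1 groups (adjusted p = 3e-19). BMP5, a ligand, had 16, 10 and 12 counts in RFP, 0, 0 and 0 in ETS1-Low and 22, 19 and 22 in ETS1-High. The fitted log2 fold change between the ETS1 groups was 7.44 (adjusted p = 6.63e-10), a value that depends on the prior count because ETS1-Low is at 0. Set against 3 counts per library, BMP5 was at least 6.72-fold lower in ETS1-Low than in ETS1-High and at least 3.61-fold lower than in RFP. Its rise in ETS1-High against RFP (adjusted p = 0.0267) was not called by the DESeq2 Wald test, without a filter on low counts, or without RFP replicate 2 or 3 or ETS1-High replicate 1 or 3. The differences of the other 4 genes were smaller. Each was higher than RFP in ETS1-High and lower in ETS1-Low, and ETS1-High exceeded ETS1-Low by 0.86 (log2) in FSTL1 (adjusted p = 1.78e-30), 0.87 in CRIM1 (5.5e-28), 0.63 in SKIL (2.66e-18) and 0.30 in SMAD9 (1.15e-07). The SMAD9 call in ETS1-Low against RFP (adjusted p = 0.0489) was lost under several alternatives.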

How the results depend on the processing

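Every count of calls over all genes and over the other pathway genes stayed within 1.5 times its value under every alternative that gave one (114 of 114). This band is wide. Among the genes of the main fit its upper end could not be passed by the all-gene counts against RFP (74.2% and 74.1% called). The same holds for the pathway genes in all comparisons (85.1% to 91.5% called). With the replicate number as a block, 12701, 12729 and 10122 genes were called in ETS1-High against RFP, ETS1-Low against RFP and ETS1-High against ETS1-Low, and 41, 42 and 40 of the other pathway genes. Same-numbered libraries correlated at -0.13 to 0.138 in their deviations and others at -0.138 to 0.152, and the labels give no shared source, so the numbers were not taken as pairs. In all, 2 of 9 libraries correlated best with their own number. The block changed the call of SMAD9 in ETS1-Low against RFP (log2 fold change -0.10) among the pathway genes named. That call was also lost without a filter, and without RFP replicate 2 or 3, ETS1-Low replicate 1 or 2, or any 1 ETS1-High library. RGMA in ETS1-Low against RFP (-0.46, adjusted p = 0.0598 in edgeR) was called under 5 count-based alternatives. In counts, 374 of 381 log2 fold changes of members moved by less than 1 SD, with the others in CHRDL1 without ETS1-Low replicate 1 or 2 (-5.17 and -4.35 against RFP), and in BMP7 and SMAD6 with upper-quartile factors. The FPKM fits moved 55 of 72 and turned BMPR1B in ETS1-Low against RFP from 0.21 to -0.0179 with a pseudocount of 1, with or without a filter, and to -0.0233 with 0.1, and the cause was not tested. Subtracting the median of neighbours moved 16 of 24 and turned no called sign. Depth limits BMP4, and CHRDL1 where it holds 1 to 3 counts.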
